A study of Homo sapiens with 18 samples.

Results

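The Aurora kinase genes AURKA, AURKB and AURKC and 7 genes whose products act with these kinases were followed in 18 RNA-seq libraries of C4-2B cells. The 10 genes were chosen by name for their roles, with earlier results of these data known. They stand among 22136 genes in the 2-day count table and 21276 genes in the 7-day count table. C4-2B is a single human prostate cancer cell line derived from LNCaP, grown here as a wild-type line only in the sense that no allele was engineered. The paper cites earlier reports that C4-2B carries some mutations in BRCA2 and other homologous recombination genes, without a functional deficiency. Cells received DMSO vehicle (VEH) or 0.1 µM of the AURKA inhibitor VIC-1911 (VIC) for 2 days. In a separate experiment of 7 days they received vehicle, 0.1 µM of VIC-1911, 1 µM of the PARP inhibitor olaparib (OLA) or both drugs at these doses (COMBO). Each of the 6 groups had 3 libraries of polyadenylated RNA. Nothing in the labels says whether the 3 came from separate cultures, so the p-values measure the spread between these libraries, which may be technical.

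Aurora A kinase works at centrosomes and on the mitotic spindle. BORA helps it to activate PLK1 before mitosis, and TPX2 brings it to spindle microtubules and switches it on. TACC3 is one of its substrates and, once phosphorylated, stabilizes microtubule bundles. Aurora B kinase is the enzyme of the chromosomal passenger complex, in which INCENP is the scaffold and activator, and BIRC5 (survivin) and CDCA8 (borealin) carry the complex to centromeres and later to the midzone. Aurora C can take the place of Aurora B in this complex and is best known from germ cells. The mRNAs of most of these genes are made mainly in G2 and mitosis, when the CHR promoter element and CCAAT boxes bound by NF-Y are used. In resting cells these mRNAs are held down by repressor complexes acting through elements such as the CHR. VIC-1911 blocks the activity of the kinase, so a level of mRNA is not a measure of how well the drug acted.

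The libraries held between 3245273 and 7184420 counts on genes at 2 days and between 4967931 and 19684208 at 7 days. The cells carried their labelled identity, with KLK3 (PSA) between 1240 and 2700 FPKM, whereas CD3E and KRT5 were listed at 0 in all 18 libraries and the 10 markers of other cells summed to at most 0.917 FPKM. FPKM correct the reads of a gene for its length and for the depth of the library, so levels can be compared between genes. The summed level of 8 prostate luminal markers was 4360 to 4400 FPKM in vehicle at 7 days and 2870 to 3280 FPKM in the treated libraries of that time, and its part in the results below was not tested. Replicate 1 of the vehicle at 7 days had the highest FPKM of its group for each of the 10 genes, so results of the 10 genes and of the lists against that vehicle are also given without it where a call or a count changed. The library numbers in the sample records run on from vehicle to VIC-1911 at 7 days, and from olaparib to the combination in another run. What a run stands for is not stated. Olaparib and combination libraries are in another run than those of vehicle and of VIC-1911 alone. In comparisons across these runs, run and treatment cannot be told apart. In bulk RNA, fewer cycling cells and less mRNA in each such cell cannot be told apart either.

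The set of RefSeq promoters used here (GRCh38.p14) held 7 of the 10 genes, as windows from 250 bases before to 50 bases after the transcription start. The CHR element, TTTGAA on either strand, was found in 4 of these 7 genes (CDCA8, INCENP, PLK1 and BORA), and CCAAT on either strand in 6. Over all 27305 genes with a window, 18.2% held the CHR letters, 39.7% held CCAAT and 7.26% held both. Among 34 other mitotic genes, 31 had a window, and 80.6% of these held the CHR letters, against 6.25% of 16 genes of DNA replication. CDCA8, INCENP and PLK1 are shown as members with both motifs close to the start. AURKC is shown as a paralog with CCAAT but no CHR letters in its window, which also held for AURKB. All 4 stretches are on the plus strand and written 5′ to 3′, with TTTGAA and CCAAT (or its reverse complement ATTGG) in capitals. In CDCA8 the CHR letters and the last ATTGG overlap by 1 base.
CDCA8, chr1:37692418-37692503: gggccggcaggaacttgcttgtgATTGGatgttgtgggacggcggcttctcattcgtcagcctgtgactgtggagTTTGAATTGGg
INCENP, chr11:62123926-62124010: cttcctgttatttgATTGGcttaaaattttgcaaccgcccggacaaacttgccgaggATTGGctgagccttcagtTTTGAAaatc
PLK1, chr16:23678785-23678870: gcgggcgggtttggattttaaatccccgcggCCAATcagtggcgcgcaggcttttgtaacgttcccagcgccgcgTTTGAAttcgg
AURKC, chr19:57230937-57231022: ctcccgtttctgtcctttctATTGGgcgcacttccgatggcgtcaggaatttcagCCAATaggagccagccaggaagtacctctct

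Counted from -1 for the base just before the start, the CHR letters ended at -5 in INCENP, -18 in CDCA8, -24 in PLK1 and -172 in BORA. AURKB, with a window at each of 2 annotated starts, held CCAAT but no CHR letters, and the TACC3 window held neither. The windows of AURKB, TACC3 and PLK1 lie wholly inside the gene positions given below, so the sequence at the outer ends of these genes was not searched. No window was used for AURKA, TPX2 and BIRC5. A match of letters is a description and not a binding site.

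AURKA, the target of VIC-1911 (chromosome 20, 56369389 to 56392337 on the minus strand, GRCh38), was measured in every library. After 2 days it stood at 24.7, 25.4 and 28.1 FPKM in vehicle and at 30.4, 30.7 and 31.0 FPKM with VIC-1911. All 3 treated libraries lay above the vehicle libraries, and AURKA rose 1.18-fold (log2 fold change 0.24 ± 0.06 SE, edgeR quasi-likelihood test with Benjamini-Hochberg adjustment, adjusted p = 0.00755, n = 3 per group). DESeq2 gave a log2 fold change of 0.24 with an adjusted p of 0.0555, which did not pass. At 7 days the vehicle libraries held 8.01, 5.45 and 5.61 FPKM, and the VIC-1911 libraries 23.5, 23.0 and 25.9 FPKM. AURKA thus rose 3.64-fold (log2 1.86 ± 0.10, edgeR adjusted p = 4.2e-16), with a wide gap between the groups. Olaparib libraries held 9.11, 10.1 and 8.23 FPKM, just above the highest vehicle library, a rise of 1.40-fold (log2 0.48 ± 0.11, edgeR adjusted p = 2.9e-04). Libraries with both drugs held 7.33, 6.98 and 6.57 FPKM and fell among the vehicle libraries. Their log2 difference of 0.11 had a 95% interval of -0.11 to 0.33 and did not pass (edgeR adjusted p = 0.385). Without replicate 1 of the vehicle, however, this difference was 0.32 with an adjusted p of 0.00825 (edgeR). In order, AURKA at 7 days was highest with VIC-1911, then with olaparib, then with both drugs and in vehicle, and only the last pair of neighbours overlapped.

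**Figure D1:**
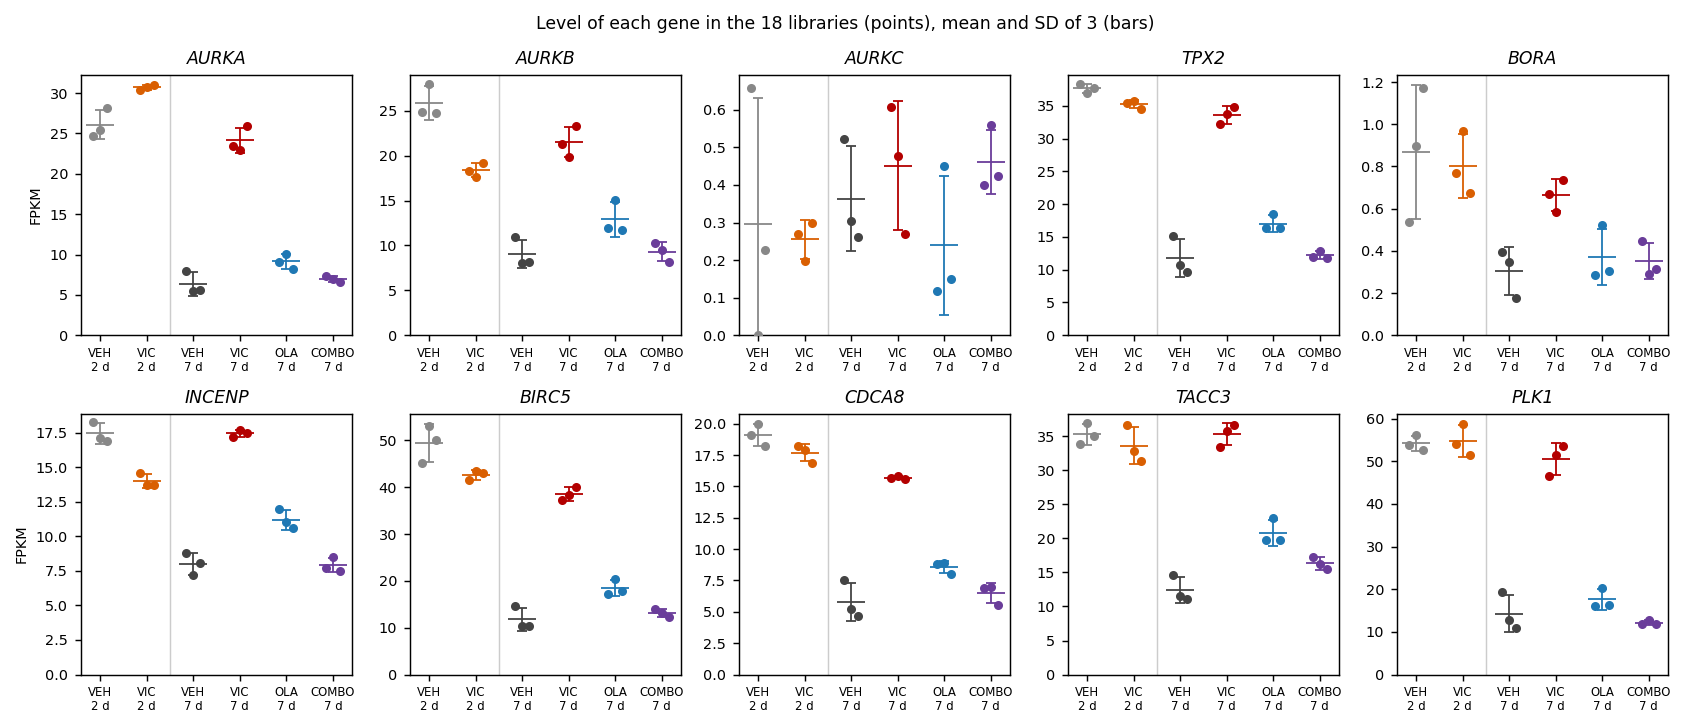
FPKM (y axis, linear from 0) of each of the 10 genes in the 18 libraries, by group on the x axis. Points are libraries and bars are the mean and SD of 3, with a grey line between the 2-day and the 7-day tables, which were made separately. Except for AURKC, the 7-day VIC-1911 libraries (red) lie above all other 7-day libraries, as for AURKA at 24.1 ± 1.57 FPKM against 6.35 ± 1.43 FPKM in vehicle.

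AURKB, the kinase of the passenger complex (chromosome 17, 8204733 to 8210600, minus strand), moved the other way at 2 days. Vehicle libraries held 24.9, 28.0 and 24.7 FPKM and VIC-1911 libraries 18.3, 17.6 and 19.2 FPKM. All treated libraries were lower, and AURKB fell by 0.45 ± 0.09 on the log2 scale (edgeR adjusted p = 4.7e-04). At 7 days the order was turned, with 10.9, 8.03 and 8.20 FPKM in vehicle and 21.3, 19.9 and 23.3 FPKM with VIC-1911. This was a 2.29-fold rise (log2 1.19 ± 0.11, edgeR adjusted p = 2.0e-10), and every treated library was above every vehicle library. Olaparib gave 11.9, 15.1 and 11.7 FPKM, which was 1.41-fold over vehicle (log2 0.50 ± 0.12, edgeR adjusted p = 6.1e-04). With both drugs AURKB stood at 10.3, 9.46 and 8.20 FPKM, within the range of vehicle, and the log2 difference of 0.03 (95% interval -0.22 to 0.27) did not pass.

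AURKC, the germ-cell paralog (chromosome 19, 57231009 to 57235548), was close to the limit of what these libraries could measure. At 2 days no library held more than 3 counts, and the gene was not tested. At 7 days it was listed at 0.117 to 0.608 FPKM, from between 1 and 13 counts per library, and the groups overlapped in all comparisons. Its log2 difference with VIC-1911 was 0.13 with a 95% interval of -0.81 to 1.07, so that even a 2-fold rise lies within the interval at this depth.

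The ratio of AURKA to AURKB FPKM within a library put both kinases on one scale. It was 0.99, 0.905 and 1.14 in vehicle at 2 days and averaged 1.67 ± 0.0657 (SD, n = 3) with VIC-1911, against 1.01 ± 0.118. At 7 days it averaged 0.698 ± 0.0293 in vehicle, 1.12 ± 0.0281 with VIC-1911, 0.711 ± 0.0528 with olaparib and 0.750 ± 0.0469 with both drugs. The libraries with VIC-1911 alone lay above those of vehicle at both times. The log2 difference was 0.73 at 2 days and 0.69 at 7 days, each with p = 0.1 in a two-sided exact permutation test, which is the smallest p that 3 against 3 libraries allow. For olaparib the difference was 0.03 (exact permutation p = 0.7) and for the combination 0.10 (exact permutation p = 0.2). After Benjamini-Hochberg adjustment over these 4 comparisons the permutation p-values were 0.2, 0.2, 0.7 and 0.267, none of which passes.

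**Figure D2:**
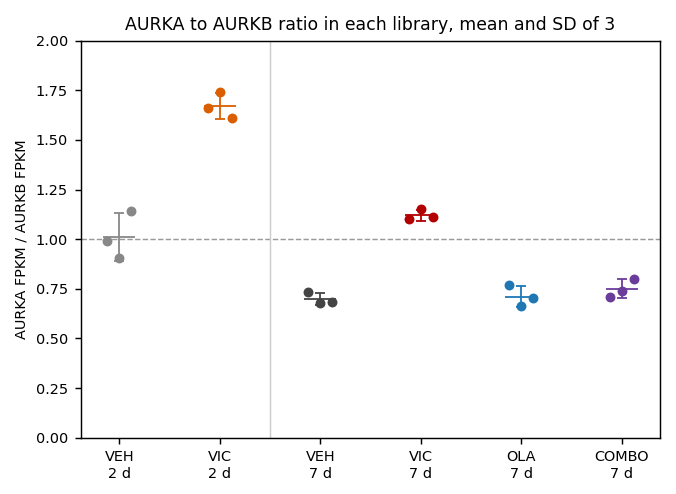
Ratio of AURKA FPKM to AURKB FPKM (y axis, linear from 0) in each library by group, with the mean and SD of 3. The dashed line marks equal levels, above which lie the libraries with VIC-1911 alone at 2 days (1.67 ± 0.0657) and at 7 days (1.12 ± 0.0281).

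Of the genes that act with Aurora A, TPX2, its spindle activator (chromosome 20, 31739271 to 31801805), stood at 38.3, 37.0 and 37.7 FPKM in 2-day vehicle and at 35.5, 35.7 and 34.6 FPKM with VIC-1911. The VIC-1911 libraries were the lower ones, but the log2 difference of -0.08 did not pass (edgeR adjusted p = 0.37). At 7 days it was at 15.1, 10.7 and 9.69 FPKM in vehicle and at 32.2, 33.7 and 34.9 FPKM with VIC-1911. TPX2 thereby rose 2.71-fold (log2 1.44 ± 0.09, edgeR adjusted p = 1.6e-14). It also rose with olaparib, to 16.3, 18.5 and 16.3 FPKM (log2 0.49 ± 0.09, edgeR adjusted p = 3.4e-05). With both drugs it was at 11.9, 12.9 and 11.8 FPKM, inside the range of vehicle, with a log2 difference of 0.01 that did not pass. Without vehicle replicate 1 the difference was 0.22 and passed (edgeR adjusted p = 0.0115).

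PLK1, the kinase that Aurora A switches on before mitosis (chromosome 16, 23677656 to 23690367), did not pass at 2 days, at 53.9, 56.1 and 52.7 FPKM in vehicle and 54.1, 58.7 and 51.5 FPKM with VIC-1911. At 7 days vehicle held 19.3, 12.7 and 10.9 FPKM and VIC-1911 held 46.5, 51.5 and 53.7 FPKM. This was a rise of 3.35-fold (log2 1.74 ± 0.11, edgeR adjusted p = 2.6e-14), and the groups were far apart. PLK1 was the least settled of the 10 genes under olaparib and the combination. Olaparib libraries held 16.1, 20.4 and 16.3 FPKM, which overlapped with vehicle, and the log2 difference of 0.26 just missed the limit (edgeR adjusted p = 0.0535). The block on replicate numbers gave 0.28 with an adjusted p of 0.0355, and without replicate 1 of the vehicle it was 0.53 with an adjusted p of 1.5e-05 (both edgeR). With both drugs, at 11.9, 12.9 and 11.8 FPKM, PLK1 fell by 0.28 on the log2 scale against vehicle (edgeR adjusted p = 0.0476). This call was lost under 10 alternatives, among them the replicate block (-0.27, adjusted p = 0.0513) and the fit without vehicle replicate 1 (-0.01, adjusted p = 0.951).

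TACC3, a spindle substrate of Aurora A (chromosome 4, 1712858 to 1745171), was at 33.9, 36.9 and 35.1 FPKM in 2-day vehicle and at 36.6, 32.9 and 31.4 FPKM with VIC-1911, which overlapped and did not pass. At 7 days it went from 14.6, 11.6 and 11.1 FPKM in vehicle to 33.5, 35.8 and 36.7 FPKM with VIC-1911, a rise of 2.73-fold (log2 1.45 ± 0.07, edgeR adjusted p = 3.5e-16). TACC3 also had the largest olaparib effect of the 10 genes, at 19.7, 23.0 and 19.8 FPKM (log2 0.72 ± 0.08, edgeR adjusted p = 3.7e-09). Under the combination it was at 17.3, 16.2 and 15.5 FPKM, and it was the single gene of the 10 whose combination libraries all lay above vehicle (log2 0.38 ± 0.08, edgeR adjusted p = 1.1e-04).

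BORA, the activator through which Aurora A reaches PLK1 (chromosome 13, 72727749 to 72756198), was low, with 3 to 22 counts per library at 2 days and 5 to 47 at 7 days. At 2 days its groups overlapped and the log2 difference of -0.16 did not pass. At 7 days it was at 0.394, 0.345 and 0.178 FPKM in vehicle and at 0.669, 0.585 and 0.738 FPKM with VIC-1911. The groups did not overlap, and BORA rose 1.95-fold (log2 0.96 ± 0.28, edgeR adjusted p = 0.00495). Neither olaparib (0.22 ± 0.31) nor the combination (0.12 ± 0.31) passed against vehicle on the log2 scale. BORA, TACC3 and PLK1 each overlap a gene on the other strand that is also in the count table (DIS3, TMEM129 and ERN2), and the strand setting of the counting is not given in the sources used here, so their counts are uncertain to that extent.

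The 3 non-kinase members of the passenger complex did not move as one at 2 days. INCENP, the scaffold (chromosome 11, 62123998 to 62153169), was at 18.3, 17.1 and 16.9 FPKM in vehicle and at 14.6, 13.7 and 13.7 FPKM with VIC-1911. It fell by 0.30 ± 0.07 on the log2 scale (edgeR adjusted p = 1.0e-03), with no overlap between the groups. BIRC5, or survivin (chromosome 17, 78214186 to 78225636), was at 45.2, 53.1 and 50.1 FPKM in vehicle and at 41.5, 43.4 and 43.0 FPKM with VIC-1911. It also fell, by 0.25 ± 0.06 (edgeR adjusted p = 0.00268), and its treated libraries were all below the lowest vehicle library. CDCA8, or borealin (chromosome 1, 37692481 to 37709719), was at 19.1, 20 and 18.2 FPKM against 18.2, 17.9 and 16.9 FPKM, and its log2 difference of -0.05 did not pass.

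At 7 days all 3 rose with VIC-1911. INCENP went from 8.76, 7.19 and 8.04 FPKM to 17.2, 17.7 and 17.5 FPKM (2.12-fold, log2 1.09 ± 0.07, edgeR adjusted p = 2.6e-14). BIRC5 went from 14.6, 10.4 and 10.4 FPKM to 37.2, 38.4 and 40.0 FPKM (3.13-fold, log2 1.65 ± 0.08, edgeR adjusted p = 3.2e-16). CDCA8 went from 7.53, 5.21 and 4.70 FPKM to 15.7, 15.8 and 15.6 FPKM (2.55-fold, log2 1.35 ± 0.10, edgeR adjusted p = 3.8e-12). In none of the 3 did a treated library come near vehicle. Olaparib raised them less, by log2 0.45 for INCENP, 0.63 for BIRC5 and 0.50 for CDCA8, all past the test. Under the combination INCENP held 7.74, 8.47 and 7.52 FPKM, BIRC5 13.9, 13.2 and 12.2 FPKM and CDCA8 6.90, 6.99 and 5.58 FPKM. These overlapped with vehicle, and the log2 differences of -0.02, 0.13 and 0.12 did not pass. Without vehicle replicate 1, BIRC5 (0.31, edgeR adjusted p = 0.00115) and CDCA8 (0.34, edgeR adjusted p = 0.00658) passed and INCENP (0.05) did not.

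**Figure D3:**
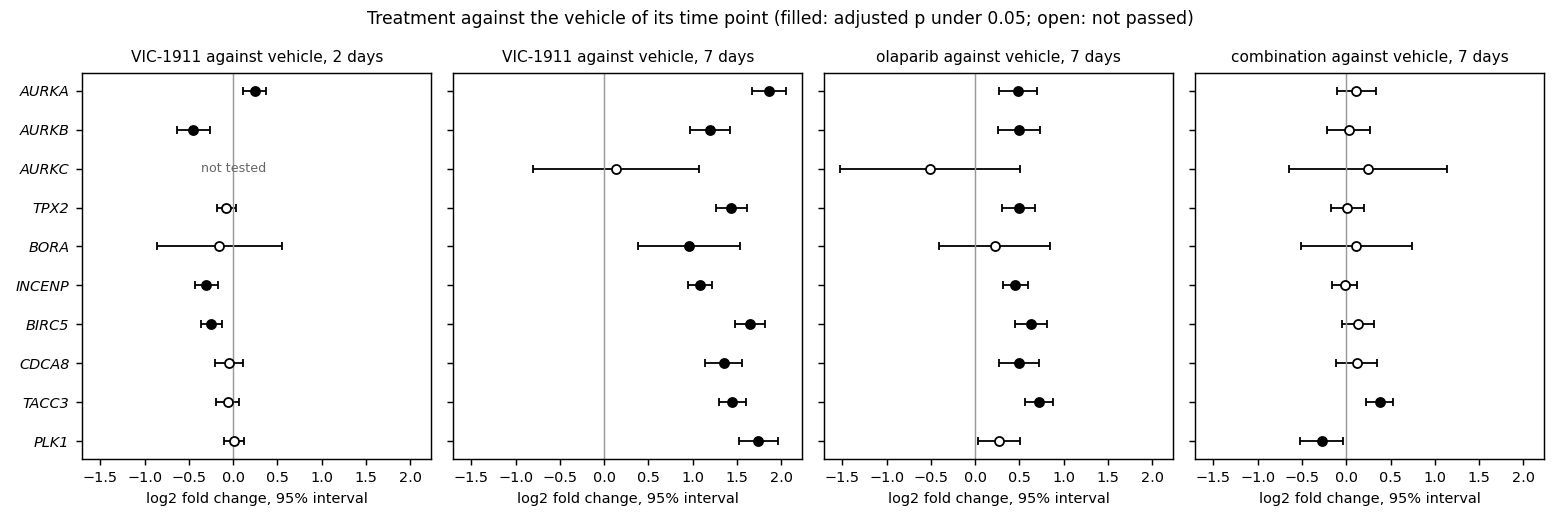
Log2 fold change (x axis) of each gene (rows) in the 4 comparisons with the vehicle of the same time point, with 95% intervals from the edgeR fit. Filled points had an adjusted p under 0.05. With VIC-1911 at 7 days 9 of 10 points are filled and right of 0, with olaparib 7 are, and with both drugs TACC3 alone is, while PLK1 is filled left of 0.

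Counted together, 1 of the 9 genes tested at 2 days was higher with VIC-1911 (AURKA) and 3 were lower (AURKB, INCENP and BIRC5), where 7.5% of all 12241 genes tested were higher and 7.19% lower. None of the 9 reached 1.5-fold. At 7 days 9 of 10 were higher with VIC-1911 and none lower, against 26.7% higher and 25.7% lower of 14409 genes. At least 2-fold higher were 8 of the 10, against 3.46% of all genes, and the median log2 fold change of the 10 was 1.39, against -0.01 over all genes. With olaparib 7 of 10 were higher and none lower, where 28.1% of genes were higher and 25.9% lower, and the median was 0.49. Without replicate 1 of the vehicle 8 were higher with olaparib, with PLK1 as the gene gained, where 25.4% of genes were higher. The combination had 1 gene higher and 1 lower, no more than the shares of all genes that were higher (28.6%) or lower (28.0%), with a median of 0.11. Without replicate 1 of the vehicle 5 genes were higher under the combination (AURKA, TPX2, BIRC5, CDCA8 and TACC3) and none lower. In that fit 26.0% of all genes were higher and 27.0% lower. The 3 comparisons at 7 days used the same 3 vehicle libraries.

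Setting the treated groups against each other leaves the vehicle libraries out. Against olaparib alone, 8 of the 10 genes were lower with both drugs and none higher, where 6.95% of all genes were lower and 4.55% higher. PLK1 fell by 0.54 ± 0.12, BIRC5 by 0.50 ± 0.08, TPX2 by 0.48 ± 0.09 and AURKA by 0.37 ± 0.10 on the log2 scale (edgeR adjusted p = 0.00197, 1.6e-04, 4.2e-04 and 0.0152). In each of the 8 the combination libraries were all below the olaparib libraries, a separation that was not counted over all genes. Limma on log2 FPKM called 5 of the 8, without AURKA, CDCA8 and PLK1, and PLK1 was also lost with DESeq2 (adjusted p = 0.0847). The count was likewise 5 without olaparib replicate 2 or without combination replicate 3.

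Against VIC-1911 alone, the combination was lower in 9 of the 10 genes, 8 of them at least 2-fold. Over all genes 22.2% were lower, 20.7% higher and 1.82% at least 2-fold lower. PLK1 differed most, with a log2 fold change of -2.02 ± 0.11 (edgeR adjusted p = 3.9e-15), followed by AURKA at -1.75 ± 0.09 (edgeR adjusted p = 3.1e-15). Olaparib alone against VIC-1911 alone was also lower in 9 of the 10, where 12.3% of genes were lower and 11.1% higher. Here PLK1 (-1.48), AURKA (-1.38) and BIRC5 (-1.02) were at least 2-fold lower. In both comparisons with VIC-1911 the libraries of the 9 genes did not overlap, and AURKC was the exception. The share of all genes separated in this way was not counted. Both comparisons set libraries of different runs of library numbers against each other, so run and treatment cannot be told apart in them. BORA passed narrowly for olaparib against VIC-1911 (edgeR adjusted p = 0.0446) and lost this call under 10 of the alternatives, among them DESeq2 (adjusted p = 0.106) and the replicate block (-0.73, adjusted p = 0.0513). For the combination it lost the call without VIC-1911 replicate 3 (edgeR adjusted p = 0.0624) or combination replicate 3 (edgeR adjusted p = 0.0506).

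The drug interaction (the change on adding VIC-1911 to olaparib less the change on adding it to vehicle) was negative in 9 of the 10 genes (edgeR, adjusted p under 0.05), where 22.9% of all genes had a negative and 21.0% a positive one. On adding VIC-1911 without olaparib AURKA rose by log2 1.86, and on adding it to olaparib AURKA fell by 0.37, an interaction of -2.23 ± 0.14 (edgeR adjusted p = 8.2e-14). PLK1 had the interaction farthest from 0, at -2.28 ± 0.16 (edgeR adjusted p = 7.2e-13). INCENP, at -1.56 ± 0.09, had the smallest of the 8 well-counted genes (edgeR adjusted p = 4.6e-14). BORA, at -1.07 ± 0.41, passed at an adjusted p of 0.0347 (edgeR) but not with DESeq2 (adjusted p = 0.0773) and not when any 1 of 6 libraries was left out, with -0.70 without olaparib replicate 2. Each of the 2 changes compares libraries of a single run of library numbers, but the 2 changes come from different runs. A VIC-1911 effect that differs between runs and one that differs with olaparib cannot be told apart.

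**Figure D4:**
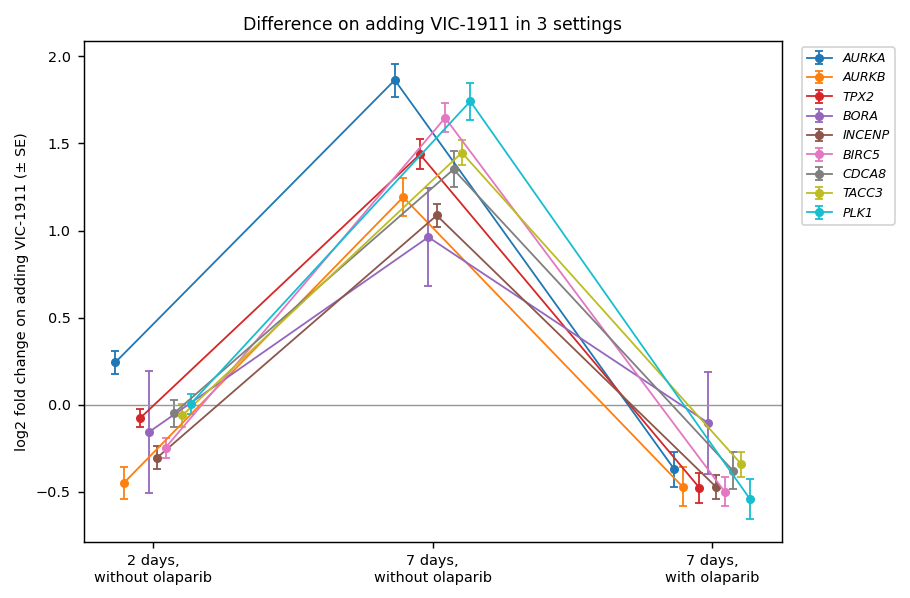
Log2 fold change on adding VIC-1911 (y axis, ± SE) for 9 genes in 3 settings on the x axis: 2 days without olaparib, 7 days without it and 7 days with it. Lines join the points of one gene for reading only, and AURKC is left out since it was not tested at 2 days. At 7 days all 9 are above 0 without olaparib, from BORA at 0.96 to AURKA at 1.86, and all are below 0 with it, from BORA at -0.10 to PLK1 at -0.54.

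The effect of VIC-1911 at 7 days was also larger than that at 2 days. The difference between the effects passed in 8 of the 10 genes, all positive, where 14.6% of 13832 genes had a positive and 14.2% a negative difference. It was largest for BIRC5 (log2 1.88 ± 0.10, edgeR adjusted p = 1.1e-19) and PLK1 (1.72 ± 0.12, edgeR adjusted p = 7.4e-16). AURKB, which fell at 2 days and rose at 7 days, differed by 1.63 ± 0.14 (edgeR adjusted p = 2.0e-13), close to AURKA at 1.61 ± 0.12. BORA, at 1.09 ± 0.47, did not pass (edgeR adjusted p = 0.078). Without replicate 1 of the 7-day vehicle BORA was at 1.28 and passed (edgeR adjusted p = 0.0441).

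The levels themselves show where the tables differed. Mean AURKA was 26.0 FPKM in vehicle at 2 days and 6.35 FPKM in vehicle at 7 days, a ratio of 4.10. With VIC-1911 it was 30.7 FPKM at 2 days and 24.1 FPKM at 7 days, a ratio of 1.27. The other genes that were tested at both times followed the same order. Their vehicle ratios ran from 2.18 for INCENP to 4.19 for BIRC5, while the ratios with VIC-1911 ran from 0.801 for INCENP to 1.21 for BORA. The 7-day VIC-1911 level of AURKA was 0.926 of the 2-day vehicle level, and that of the other 8 was between 0.767 and 1.00 of it. The median gene of all had a vehicle ratio of 1.01, the 34 other mitotic genes a median of 3.54 and the genes of DNA replication 2.55. The tables were made separately, so no test was run, and time in culture and table cannot be told apart. The 2-day FPKM of BORA came out 1.28 times higher relative to its counts than for the median gene, so its ratios are the least certain of these.

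The wider Aurora and mitotic genes were counted by lists, and these counts are set beside the shares of all genes. Of 21 genes around Aurora B, such as its centromere receptors and midzone partners, 18 were higher with VIC-1911 at 7 days and 1 was lower, against 26.7% and 25.7% of all genes, with a median log2 fold change of 1.09. Without vehicle replicate 1 there were 17 and 1, against 24.3% and 26.0% of all genes. KIF20A, the kinesin that takes the passenger complex to the midzone, rose by 1.83, and CDCA2, which counters Aurora B on chromatin, by 1.62. With the combination 5 of the 21 were higher and 6 lower, close to the 28.6% and 28.0% of all genes, and without vehicle replicate 1 there were 5 and 2. CASC5, a kinetochore scaffold, was among the lower ones in both fits, at -0.54 and -0.49. The genes around Aurora A were more mixed. With VIC-1911 at 7 days, 7 of the 17 tested were higher and 2 lower, with a median of 0.09. These counts were nearer to the 26.7% and 25.7% of all genes. Without vehicle replicate 1, 6 of these 17 genes were higher and 3 lower, against 24.3% and 26.0% of all genes. Among them HMMR, a spindle protein that binds TPX2, rose by 1.84 and CDC25B, a phosphatase that Aurora A phosphorylates, by 1.06, while AJUBA, a LIM protein that activates Aurora A, fell by 0.97.

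Of the 18 genes of mitotic entry around PLK1, 15 were higher with VIC-1911 at 7 days and none lower, against the same 26.7% and 25.7% of all genes. With olaparib 15 were higher (28.1% of all genes), and with both drugs 7 were higher and 3 lower (28.6% and 28.0% of all genes), or 9 and 1 without vehicle replicate 1. CDC20, the activator of the anaphase-promoting complex, had the largest rise with VIC-1911 at 7 days among the genes named here, from 18.4 ± 6.02 to 74.5 ± 3.17 FPKM (log2 1.95 ± 0.12), and at 2 days it rose too (0.24, edgeR adjusted p = 0.0029). CDK1, the kinase of mitotic entry, rose by 1.86 with olaparib and by 1.22 with the combination. PLK2, a p53-responsive relative of PLK1, rose by 1.28 and 1.43. With VIC-1911 alone at 7 days CDK1 stood at 40.1 FPKM and PLK2 at 10.3 FPKM, against 11.1 and 5.72 FPKM in vehicle. At 2 days 19 of the 34 other mitotic genes were lower with VIC-1911 and none higher, with a median of -0.25, where 7.19% of all genes were lower and 7.5% higher. At 7 days 33 were higher, with a median of 1.28, where 26.7% of all genes were higher. With both drugs 6 were higher and 12 lower, against 28.6% and 28.0% of all genes. Without vehicle replicate 1 this turned to 13 higher and 5 lower, against 26.0% and 27.0%, so that the direction of this list under the combination rests on that library. CKS2 (1.11) and MAD2L1 (0.66) were among those higher with both drugs. MKI67, the proliferation marker, stood at -0.41 at 2 days and, at 7 days, 1.28 with VIC-1911, 0.21 with olaparib and -0.62 with both drugs, all past the test, and the last was -0.53 without vehicle replicate 1. All 34 had a negative drug interaction, against 22.9% of all genes, and all 34 did so without that library.

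FOXM1 and MYBL2 encode the transcription factors that drive G2 and M genes. FOXM1 fell by 0.33 at 2 days and at 7 days rose by 1.22 with VIC-1911 and by 0.54 with olaparib, and it fell by 0.21 with both drugs (edgeR adjusted p = 0.0292), a call that was lost without vehicle replicate 1 (-0.14, edgeR adjusted p = 0.191). MYBL2 fell by 0.39 at 2 days, rose by 1.54 with VIC-1911 and by 0.86 with olaparib at 7 days, and its difference with both drugs was 0.01 (edgeR adjusted p = 0.916), or 0.17 without that library (edgeR adjusted p = 0.0663). CDKN1A, the p53 target p21 that restrains cyclin-dependent kinases, had another order. It rose with VIC-1911 at both times, from 55.2 ± 0.997 to 129 ± 5.66 FPKM at 2 days and from 25.9 ± 2.23 to 96.1 ± 3.46 FPKM at 7 days. Its levels were highest with olaparib, at 216 ± 5.36 FPKM, and with both drugs, at 258 ± 1.67 FPKM. Of the 20 genes of DNA replication all were higher with VIC-1911 at 7 days, 19 with olaparib and 12 with both drugs (1 was lower), with medians of 0.98, 0.66 and 0.26, against 26.7%, 28.1% and 28.6% of all genes higher. Without vehicle replicate 1, 13 of them were higher with both drugs and none lower, against 26.0% and 27.0% of all genes.

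Over the 12 libraries of 7 days, the genes outside the 10 whose library-size-scaled log2 counts followed AURKA most closely were KIF18A (Pearson r = 0.992), CDC20 (0.992), CCNB1 (0.991), SPAG5 (0.989) and KIF20A (0.985). Within the 10, r with AURKA was 0.991 for BIRC5, 0.988 for TPX2, 0.981 for PLK1, 0.979 for CDCA8, 0.976 for AURKB and 0.963 for TACC3 and for INCENP. The low-count genes followed less closely, with 0.835 for BORA and 0.174 for AURKC. The libraries share their treatment groups, so these values describe the common order of the 4 groups.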

How the data were processed

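Reads were trimmed by the authors (Trimmomatic) and mapped to GRCh38 with STAR (version 2.6.0 in the submitters' processing notes, another in the methods). The authors deposited raw counts per gene, one table for each time point, and FPKM values from a script of their own. The kits named in the methods and the labels differ, and no source used here gives the strand setting.

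edgeR 4.0.16 in R 4.3.3 was used for the counts (TMM, quasi-likelihood F test), keeping a gene if 3 or more libraries held 10 or more counts. Separate fits took the 6 libraries of 2 days, the 12 of 7 days, and the 12 vehicle and VIC-1911 libraries of both tables, with 12241, 14409 and 13832 genes. Benjamini-Hochberg adjustment ran over all of these, and a gene passed at an adjusted p under 0.05. Rose and fell are used of genes that passed. FPKM are means with the SD of 3 libraries. Alternatives were upper-quartile normalization, RLE size factors (another scaling of library size), library size alone, no filter on counts and a filter at a mean FPKM of at least 1. Further ones were the replicate block, DESeq2 1.42.0, limma 3.58.1 on log2(FPKM + 0.1) and log2(FPKM + 1), the compared groups alone, and each library left out. The gene lists without vehicle replicate 1 of 7 days were added after the values were seen. The code was tested on simulated data.

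The 10 genes and the lists were chosen with earlier results of these data known. Named outside the 10 were, per list and direction, up to 3 genes by adjusted p in each comparison with vehicle, then FOXM1, MYBL2, CDKN1A, MKI67 and the 5 genes most correlated with AURKA. Positions are those of GENCODE. Depth, between 3245273 and 19684208 counts per library, set the precision, which was poor for AURKC and BORA. Proteins were not analysed here, and 1 luminal marker is not reported here.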

Additional observations from a re-analysis of the deposited data

Results flagged for a closer look

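The effect of VIC-1911 differed between settings in a direct test of the difference (an interaction term in edgeR with Benjamini-Hochberg adjustment) in most of the 10 genes. The effects with and without olaparib came from different runs of library numbers, so run and olaparib cannot be told apart in their difference. With olaparib less without, the log2 difference of the VIC-1911 effects was -2.28 for PLK1, -2.23 for AURKA, -2.15 for BIRC5, -1.92 for TPX2, -1.79 for TACC3, -1.73 for CDCA8, -1.66 for AURKB, -1.56 for INCENP and -1.07 for BORA. In 8 of these 9 genes the 3 combination libraries were all below the olaparib libraries while the 3 VIC-1911 libraries were all above vehicle. In BORA the combination and olaparib libraries overlapped. The pattern of the 8 genes was not counted over all genes.

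At 7 days less 2 days, the log2 difference of the VIC-1911 effects was 1.88 for BIRC5, 1.72 for PLK1, 1.63 for AURKB, 1.61 for AURKA, 1.5 for TPX2, 1.49 for TACC3, 1.38 for CDCA8 and 1.38 for INCENP. The vehicle levels of these genes were 2.18 to 4.19 times higher in the 2-day table than in the 7-day table, whereas the VIC-1911 levels had ratios of 0.801 to 1.27. Groups of 3 libraries were too small for the search for a single sample far from the others.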

How the results depend on the processing

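At 7 days the count of the 10 genes higher with VIC-1911, lower with the combination than with VIC-1911, and negative in the drug interaction was 8 or 9 under each alternative run, and the AURKA rise ranged from log2 1.70 to 2.07. Of 1474 alternative values of the 10 single genes, AURKA included, 1388 kept direction and call, 43 lost the call, 14 gained it and 29 changed sign, the last all in comparisons that had not passed. At 2 days DESeq2 called 0 genes higher, with AURKA at 0.245. PLK1 at 2 days was -0.016 with upper-quartile normalization and -0.009 with library size alone, and INCENP under the combination against vehicle was 0.032 with library size alone. Against vehicle, the combination had 0 genes lower under upper-quartile normalization, library size alone, DESeq2, both limma settings and the compared groups alone. Against olaparib it had 5 lower in both limma settings, with AURKA at -0.384 and -0.345. The cause was not tested.

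Libraries of the same replicate number did not pair: their deviations correlated between -0.0029 and 0.0438 at 2 days and between -0.0356 and 0.111 at 7 days. The replicate block, run on 89 results, changed 3 calls of single genes, PLK1 with olaparib (0.284, gained) and with the combination against vehicle (-0.265, lost, leaving 0 genes lower) and BORA with olaparib against VIC-1911 (-0.725, lost).

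With each library left out in turn, values at 2 days ran from -0.488 to 0.212 for BORA, -0.118 to 0.022 for CDCA8, -0.154 to 0.002 for TACC3 and -0.036 to 0.045 for PLK1. At 7 days AURKC with VIC-1911 ran from -0.101 to 0.481 and BORA with olaparib from -0.15 to 0.45. For the combination against vehicle the count ran from 1 to 5 higher and from 0 to 1 lower, with AURKA from -0.045 to 0.32, AURKB from -0.103 to 0.188, TPX2 from -0.097 to 0.217, BORA from -0.133 to 0.267, INCENP from -0.121 to 0.05 and CDCA8 from -0.016 to 0.341. Against olaparib it ran from 5 to 8 lower, with AURKA from -0.465 to -0.277 and BORA from -0.34 to 0.265. AURKC ran from -0.206 to 0.348 against VIC-1911 and from -0.576 to 0.904 for the effect at 7 days less that at 2 days. A protein comparison of the kinases was not run.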
